A study of Homo sapiens with 18 samples.

Results

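The genes followed here are 52 genes of replication licensing, the replication fork and deoxynucleotide synthesis. They were taken by symbol from a fixed list, and all 52 had a row among the 40916 gene symbols of each count table. Polyadenylated RNA had been sequenced from human cell lines in 18 libraries, which form 6 groups of 3 biological replicates. MCF10A cells, an immortal but non-tumorigenic line of mammary epithelium, expressed histone H2B fused to GFP, and HCT116 is a colorectal carcinoma line, here a p53-null derivative without a label. The third kind of culture held both lines together, described as 50% of each. Each culture was either left non-irradiated (NIR) or given a dose of 10 Gy of ionizing radiation (IR). On the time of harvest the labels differ, with day 2 in the titles and 72 h after the dose in the design text. MCF10A was kept in DMEM/F12 with horse serum, EGF, hydrocortisone, cholera toxin and insulin, and HCT116 in McCoy's 5A with fetal bovine serum, so that line and medium cannot be told apart. The medium of the mixed cultures and whether either line is a single clone are not given in the sources used here. The labels call the replicates biological and do not say what set them apart, such as separate cultures or days, so p-values measure the spread between these libraries.

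Replication is prepared in G1, when the origin recognition complex, CDC6 and CDT1 load the ring of MCM2 to MCM7 onto DNA. In S phase the kinase of CDC7 and DBF4, with CDC45 and GINS, turns that ring into a moving helicase, and polymerases alpha, delta and epsilon copy the strands behind it with the sliding clamp PCNA. Most of these genes are transcribed as cells enter S phase, under E2F factors that the retinoblastoma proteins hold back in arrested cells, and ribonucleotide reductase, TYMS, TK1 and DUT supply the deoxynucleotides in the same window. Ionizing radiation is known to halt the cycle through ATM, ATR, checkpoint kinases and inhibitors of cyclin-dependent kinases.

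Promoter sequences were looked up because the members moved together after irradiation and E2F sites are known in many of them. The RefSeq table used, on build GRCh38.p14, gives 250 bases before to 50 bases after a gene's start and held 45 of the 52 members. DNA2, GINS4, MCM4, MCM5, POLD3, RPA2 and RPA3 had no entry. Where a gene had several starts listed, only the first listed was searched. Below are the 160 bases before the start of 7 members, 5′ to 3′ on the gene's own strand, with E2F letters and CCAAT letters in capitals. MCM6, POLA1, POLE and PCNA show both kinds of letters, CHAF1A shows CCAAT letters alone, and GMNN and CDC7 show neither in this window. They lie at chr2:135876444-135876603 (minus strand), chrX:24693758-24693917 (plus strand), chr12:132687343-132687502 (minus strand), chr20:5126623-5126782 (minus strand), chr19:4402480-4402639 (plus strand), chr6:24774777-24774936 (plus strand) and chr1:91500691-91500850 (plus strand).
MCM6: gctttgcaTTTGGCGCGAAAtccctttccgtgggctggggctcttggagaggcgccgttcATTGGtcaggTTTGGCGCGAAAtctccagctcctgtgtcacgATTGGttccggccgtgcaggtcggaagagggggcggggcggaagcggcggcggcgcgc
POLA1: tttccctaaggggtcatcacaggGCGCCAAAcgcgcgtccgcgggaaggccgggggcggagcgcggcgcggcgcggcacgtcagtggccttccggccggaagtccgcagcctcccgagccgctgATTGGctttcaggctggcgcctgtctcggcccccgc
POLE: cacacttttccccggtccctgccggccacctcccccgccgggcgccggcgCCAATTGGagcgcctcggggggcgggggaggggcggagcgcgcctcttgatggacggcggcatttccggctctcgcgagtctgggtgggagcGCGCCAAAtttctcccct
PCNA: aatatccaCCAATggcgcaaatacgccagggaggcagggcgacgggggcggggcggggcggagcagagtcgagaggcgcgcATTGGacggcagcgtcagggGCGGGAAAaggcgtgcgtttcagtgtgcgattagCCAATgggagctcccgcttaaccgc
CHAF1A: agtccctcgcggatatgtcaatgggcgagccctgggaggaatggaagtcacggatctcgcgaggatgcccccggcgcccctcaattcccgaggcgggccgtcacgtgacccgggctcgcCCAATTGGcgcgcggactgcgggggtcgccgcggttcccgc
GMNN: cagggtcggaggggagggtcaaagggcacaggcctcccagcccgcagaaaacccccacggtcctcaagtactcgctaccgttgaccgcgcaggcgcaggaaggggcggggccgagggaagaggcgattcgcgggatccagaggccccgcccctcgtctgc
CDC7: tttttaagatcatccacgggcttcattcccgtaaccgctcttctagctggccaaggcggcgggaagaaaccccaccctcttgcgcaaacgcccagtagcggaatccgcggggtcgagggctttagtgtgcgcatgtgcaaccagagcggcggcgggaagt

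The E2F letters searched were TTTCCCGC, TTTGGCGC, TTTCGCGC and TTTGCCGC on both strands, and overlapping matches were counted separately, as in the 2 pairs of overlapping matches before MCM6. They were found in the 300 bases of 18 of 45 members (40.0%), against 5.05% of 12450 genes tested in HCT116 that had a promoter and 3.33% of all 27305 promoters. The CCAAT box letters, CCAAT on either strand, were found in 24 members (53.3%), against 36.3% of tested genes. E2F and CCAAT letters stood together in 10 members (22.2%), against 2.05% of tested genes. The CHR letters TTTGAA and TTCGAA, a motif known from genes of G2 and mitosis, were found in 3 members (6.67%), against 11.8% of tested genes. The median GC content of the window was 66.0% in members and 64.7% in tested genes. A match is a description of letters, and its absence says only that these letters are not in this window.

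The libraries held 25737818 to 40839835 counts. Mitochondrially encoded genes took 5.10 to 5.32% of counts in MCF10A NIR and 6.06 to 6.35% in MCF10A IR, 8.42 to 8.75% and 11.5 to 12.3% in HCT116, and 8.37 to 8.73% and 12.0 to 12.7% in mixed cultures. Of 9 basal mammary markers, 9 were higher in MCF10A NIR, with KRT5 at 2883 CPM (counts per 1000000 of the library's total) against 0.117 CPM in HCT116 NIR. Of 9 colonic markers, 7 were higher in HCT116 NIR, led by KRT19 and EPCAM, but CDX1, VIL1, CDH17, LGALS4 and GPA33 stayed under 1 CPM in every group. Fibroblast markers summed to at most 47.2 CPM in any library, most of it COL1A1, and leukocyte markers to at most 4.05 CPM. In the mixed libraries, genes specific to one line put the MCF10A share of the RNA at 0.503, 0.438 and 0.399% (NIR) and at 1.29, 1.17 and 1.27% (IR). The mixed libraries therefore hold HCT116 RNA almost alone, against a label of 50% of each line.

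Per kilobase of exon, PCNA had the highest level of the 52 members in both non-irradiated lines, at 189.5 CPM per kilobase in MCF10A and 186 in HCT116. In MCF10A it was followed by RRM2 (104), RRM1 (73.2) and MCM3 (64.5). In HCT116 RRM2 (183) lay beside PCNA, and TK1 (162) and MCM7 (131) followed. The lowest level belonged to RNASEH2A, the catalytic subunit of ribonuclease H2, at 0.0673 and 0.399 CPM per kilobase, so that its values rest on few counts. The annotation and the handling of reads with several matches are not given in the sources used here, and whether the counting set the level of RNASEH2A was not tested. The tables may share or split reads where genes overlap, since the strand setting of the counting is not given. This touches TYMS (with ENOSF1 and TYMSOS), MCM7 (AP4M1), GINS2 (GSE1), GINS4 (GPAT4-AS1), RFC5 (WSB2), CHAF1A (UBXN6), ORC1 (PRPF38A), RPA3 (UMAD1) and PRIM2 (RAB23). DUT overlaps DUT-AS1 and has 8 pseudogene symbols with up to 2.98 CPM in all. Small RNA genes or pseudogenes overlap POLA1, POLD3, POLE2, RFC3, DNA2, TIPIN, WDHD1 and CHAF1B.

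After irradiation the replication program was lower in all 3 kinds of culture. The 52 genes summed to 4354 ± 47.7 CPM in MCF10A NIR and 2066 ± 43.0 CPM in MCF10A IR (SD, n = 3), to 6661 ± 74.1 and 3164 ± 52.2 CPM in HCT116, and to 7080 ± 123 and 3486 ± 199 CPM in mixed cultures. In MCF10A all 51 members tested fell, with a median log2 fold change of -1.14 against 0.00 over all 15154 genes tested, and RNASEH2A had too few counts for the test. A call here means an adjusted p under 0.05 (edgeR quasi-likelihood test), and 55.4% of all tested genes were called in MCF10A, 29.2% lower. In HCT116 51 of 52 members fell, with a median of -1.18 against 0.01 over 16857 genes, where 52.5% of genes were called, 27.2% lower, and the exception was PCNA. In mixed cultures all 52 fell, with a median of -1.07, where 49.4% of genes were called, 25.4% lower. In bulk RNA, fewer cells in S phase and less of each RNA per cell cannot be told apart.

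The change was sizeable for most members. A fall of at least 2-fold was found for 37 members in MCF10A, 36 in HCT116 and 35 in mixed cultures, where 3.37%, 6.91% and 4.29% of all genes tested fell that far. The CPM of the irradiated libraries lay below those of all non-irradiated libraries, without overlap, for 51 members in MCF10A, 51 in HCT116 and 52 in mixed cultures, and this held for 29.9%, 30.6% and 26.7% of all genes tested. The largest adjusted p among the calls was 8.9e-05 in MCF10A (POLA2), 0.0019 in HCT116 (GINS3) and 0.0028 in mixed cultures (RNASEH2A). No member was called higher in any of the 3 comparisons, where 26.2%, 25.3% and 24.0% of genes were. The share of called genes of all kinds that were higher in MCF10A was 47.4%, and 57.5% with upper-quartile factors, while the count of members called stayed at 51 under both. Irradiated libraries also had the larger mitochondrial shares given above, and the members' calls were the same when those genes and the 10 most abundant others were left out.

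**Figure D1:**
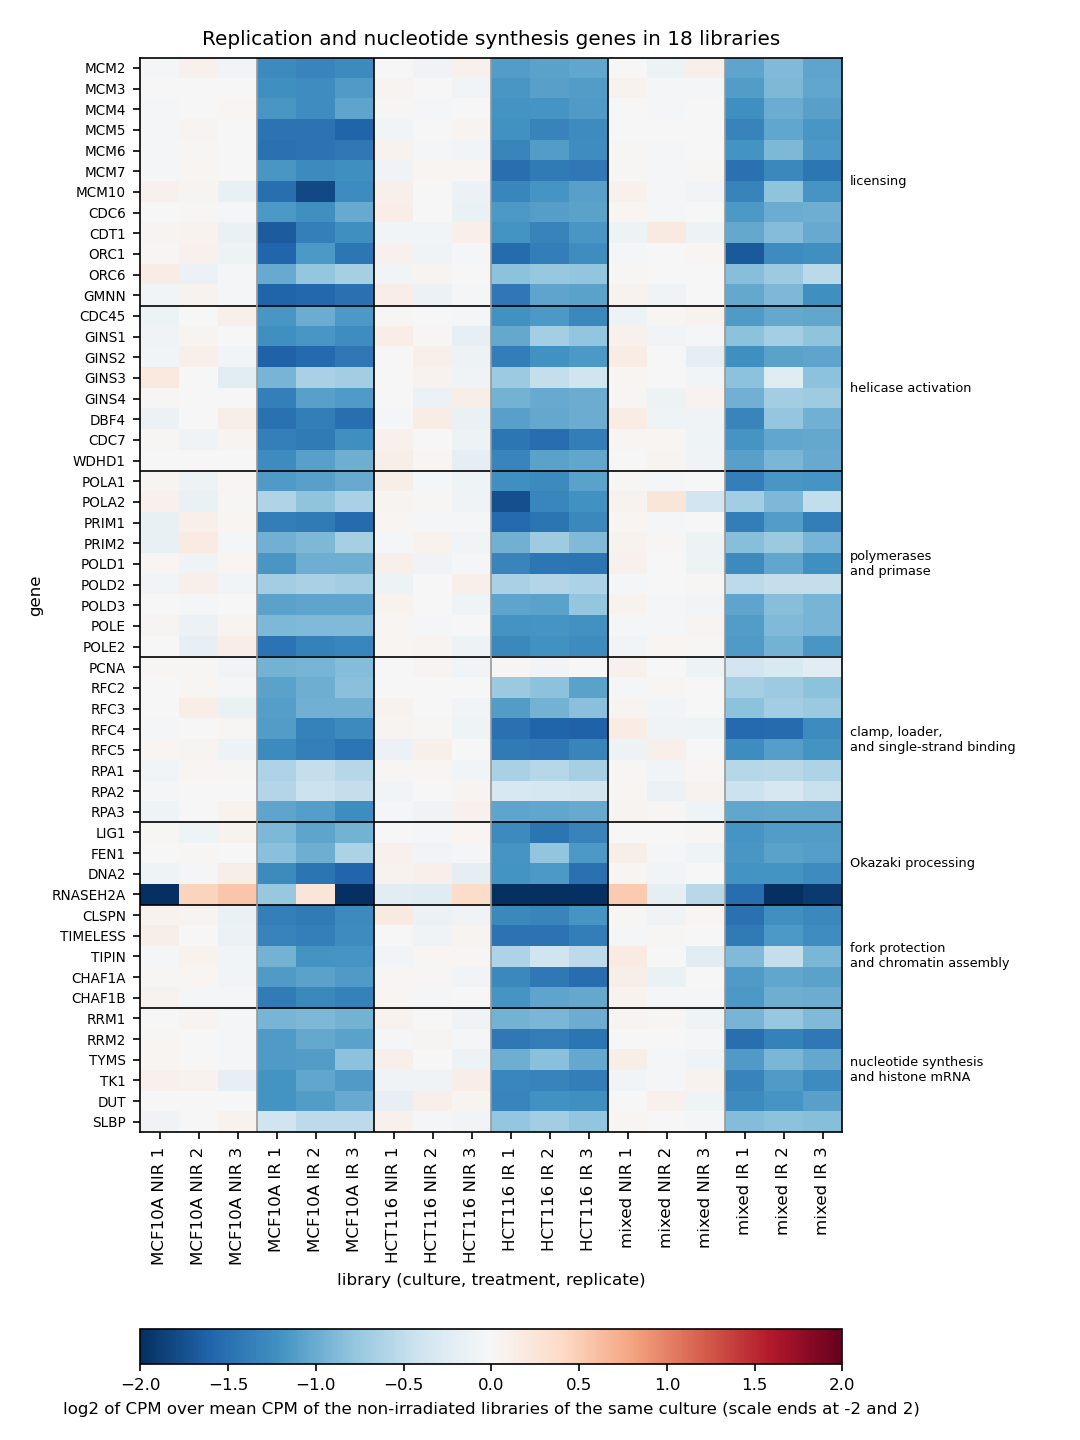
Each row is 1 of the 52 genes, ordered by role, and each column 1 of 18 libraries; the colour is the log2 of the gene's CPM over the mean CPM of the 3 non-irradiated libraries of the same culture, from -2 to 2. Irradiated columns are blue (lower) in nearly every row, PCNA in irradiated HCT116 stays near 0, and RNASEH2A varies between replicates and has few counts.

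Among the licensing genes, all 12 fell in MCF10A, HCT116 and mixed cultures, with medians of -1.36, -1.18 and -1.08. The helicase subunits MCM2 to MCM7 summed to 1028 ± 22.0 CPM in MCF10A NIR and 426 ± 11.2 CPM in IR, and to 1725 ± 7.43 and 729 ± 17.2 CPM in HCT116 (SD, n = 3). Their 6 changes lay between -1.54 (MCM5) and -1.17 (MCM4) in MCF10A, and between -1.44 (MCM7) and -1.07 (MCM2) in HCT116. The 6 subunits of the ring thus fell by like amounts, within 0.37 log2 units of each other in either line.

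GMNN, which encodes geminin, the protein that binds CDT1 and blocks reloading of origins, had the largest fall of all members in MCF10A. It was counted at 68.0, 74.4 and 69.0 CPM in the 3 NIR libraries of MCF10A and at 23.3, 23.8 and 25.1 CPM in the 3 IR libraries. In HCT116 it was counted at 64.9, 55.1 and 58.4 CPM in NIR and 22.1, 28.6 and 28.4 CPM in IR libraries. The groups were far apart in both lines, and the change was -1.57 ± 0.07 in MCF10A (log2 ± SE, adjusted p = 4e-17) and -1.17 ± 0.09 in HCT116 (adjusted p = 3.8e-10). MCM7, the subunit with the largest fall in HCT116, was counted at 456, 490.3 and 489 CPM in NIR and 168, 179.7 and 178 CPM in IR libraries. In MCF10A its levels were 224, 235 and 229 CPM in NIR and 102, 94.7 and 98.4 CPM in IR libraries. Its change was -1.44 ± 0.06 in HCT116 and -1.24 ± 0.05 in MCF10A. ORC6, a small subunit of the origin recognition complex, had the smallest fall of this role in both lines. It was counted at 41.5, 34.7 and 36.6 CPM in MCF10A NIR and 18.6, 22.0 and 23.6 CPM in IR, and at 43.2, 46.8 and 45.0 CPM in NIR and 25.4, 26.5 and 26.2 CPM in IR libraries of HCT116. The groups still did not overlap, with changes of -0.83 and -0.78. The remaining licensing genes fell between these values: ORC1, the ATPase of the complex, to 38.4% of its NIR mean in MCF10A and 38.4% in HCT116, CDC6 to 46.0% and 46.5%, CDT1 to 37.7% and 42.7%, and MCM10 to 35.2% and 43.8%.

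The 8 genes of helicase activation fell in all 3 kinds of culture, with medians of -1.22, -1.08 and -1.03. GINS2, a subunit of the GINS complex that joins the helicase, fell most in MCF10A, from 33.2, 37.1 and 33.3 CPM in NIR to 11.3, 11.7 and 12.9 CPM in IR libraries. In HCT116 it went from 56.5, 60.5 and 52.3 to 21.7, 24.5 and 25.5 CPM. The changes were -1.55 ± 0.09 and -1.23 ± 0.08, and NIR and IR libraries did not overlap. CDC7, the kinase that starts origins together with DBF4, fell most in HCT116, from 81.1, 76.4 and 70.7 to 27.9, 26.4 and 29.3 CPM, a change of -1.44 ± 0.08. In MCF10A its change was -1.36 ± 0.07, with 51.6 to 56.2 CPM in NIR and 20.3 to 23.1 CPM in IR libraries. GINS3 fell least in both lines. Its levels were 19.9, 17.3 and 15.1 CPM in MCF10A NIR and 9.15, 11.1 and 10.7 CPM in MCF10A IR, and 11.9, 12.6 and 11.4 CPM in NIR and 7.22, 8.57 and 9.09 CPM in IR libraries of HCT116. Within the GINS complex, whose 4 subunits are known to work as 1 unit, the changes thus ranged from -1.55 to -0.78 in MCF10A and from -1.23 to -0.52 in HCT116. GINS1 fell to 43.3% and 56.6% of its NIR mean in MCF10A and HCT116, GINS4 to 43.8% and 50.7%, CDC45 to 46.5% and 43.1%, and WDHD1, which ties the helicase to polymerase alpha, to 46.6% and 45.5%.

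Polymerase and primase genes numbered 9, and all 9 fell in each culture, with medians of -1.05 in MCF10A, -1.19 in HCT116 and -1.01 in mixed cultures. PRIM1, the catalytic primase subunit that lays down RNA primers, fell most in both lines. It was counted at 23.5, 28.1 and 26.9 CPM in MCF10A NIR and 10.1, 9.85 and 9.03 CPM in IR, and at 57.6, 55.1 and 55.2 CPM in NIR and 19.1, 20.3 and 22.9 CPM in IR libraries of HCT116. The changes were -1.47 ± 0.10 and -1.43 ± 0.08, while its partner PRIM2, the large primase subunit, changed by -0.85 ± 0.10 and -0.84 ± 0.08. POLA2, the second subunit of polymerase alpha, fell least in MCF10A, from 10.2, 8.76 and 9.77 to 6.32, 5.51 and 6.12 CPM. In HCT116 it fell from 14.8, 14.4 and 13.5 to 4.20, 5.78 and 6.14 CPM, and in mixed cultures from 10.7, 12.1 and 7.78 to 6.26, 5.45 and 7.23 CPM. Its levels were low, its mixed NIR libraries ranged widely, and its change was -0.70 ± 0.14 in MCF10A, -1.40 ± 0.15 in HCT116 and -0.72 ± 0.16 in mixed cultures. POLD2, an accessory subunit of polymerase delta, fell least in HCT116, from 127, 136 and 147 to 87.5, 91.1 and 87.8 CPM, a change of -0.61 ± 0.07. In MCF10A it stood at 113 to 126 CPM in NIR and 72.6 to 75.3 CPM in IR libraries, a change of -0.70 ± 0.05. The catalytic subunits POLA1, POLD1 and POLE fell to 47.4%, 48.8% and 54.0% of their NIR means in MCF10A and to 43.9%, 37.7% and 43.7% in HCT116. POLD3 fell to 48.1% and 51.5%, and POLE2 to 38.6% and 42.1%.

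The clamp, its loader and the single-strand binding protein RPA held both PCNA and RFC4, the smallest and 1 of the largest changes in HCT116. All 8 members fell in MCF10A and in mixed cultures (median -0.77 in the latter), and 7 of 8 fell in HCT116 (median -0.91). PCNA (chr20:5114953-5126626, minus strand) encodes the ring that holds polymerases on DNA and serves repair synthesis too. In MCF10A it was counted at 284, 283 and 269.7 CPM in NIR and 145, 147 and 152 CPM in IR libraries. In HCT116 it was counted at 274, 284 and 264 CPM in NIR and 279.8, 264 and 274 CPM in IR libraries. In mixed cultures the levels were 323, 306 and 283 CPM and 233, 247 and 259 CPM. The groups were apart in MCF10A, interleaved in HCT116, and apart by a smaller margin in mixed cultures. The change was -0.93 ± 0.04 in MCF10A (adjusted p = 1.7e-16), -0.00 ± 0.06 in HCT116 (not called, adjusted p = 1) and -0.33 ± 0.06 in mixed cultures (adjusted p = 7.1e-05). In HCT116 the sign turned with the setting, with values from -0.02 to 0.02 and no call under any alternative.

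RFC4, 1 of the small subunits of the clamp loader that opens PCNA, fell most in HCT116, from 80.9, 78.7 and 73.3 to 27.7, 25.5 and 25.4 CPM. In MCF10A it fell from 50.0, 51.1 and 52.1 to 23.7, 20.0 and 21.1 CPM. Its changes were -1.56 ± 0.07 and -1.26 ± 0.08. RFC5 fell most in MCF10A, from 41.4, 42.1 and 37.7 to 16.7, 15.7 and 14.6 CPM, a change of -1.39 ± 0.08, beside -1.38 ± 0.07 in HCT116. RFC2 and RFC3 fell to 51.4% and 49.8% of their NIR means in MCF10A and to 54.7% and 51.5% in HCT116. The clamp and its loader thus moved by unequal amounts: PCNA over the sum of RFC2 to RFC5 was 0.865 ± 0.0116 in HCT116 NIR and 1.98 ± 0.0596 in HCT116 IR (ratio of CPM, SD, n = 3), and 1.39 ± 0.0359 and 1.60 ± 0.0211 in MCF10A. In mixed cultures it was 0.912 ± 0.0480 in NIR and 1.51 ± 0.0530 in IR libraries. No NIR and IR ratios overlapped in any culture, and these ratios were chosen after PCNA's values were seen and were not tested. RPA2, the middle subunit of RPA, fell least of this role in MCF10A, from 53.2, 54.1 and 54.2 to 35.8, 39.9 and 38.8 CPM. In HCT116 it fell from 74.2, 75.9 and 80.0 to 61.7, 60.0 and 59.4 CPM. Its changes were -0.52 ± 0.07 and -0.34 ± 0.07, and those of the large subunit RPA1 were -0.58 ± 0.05 and -0.62 ± 0.06. RPA3, the small subunit, fell further, with changes of -1.15 ± 0.09 and -1.02 ± 0.09.

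**Figure D2:**
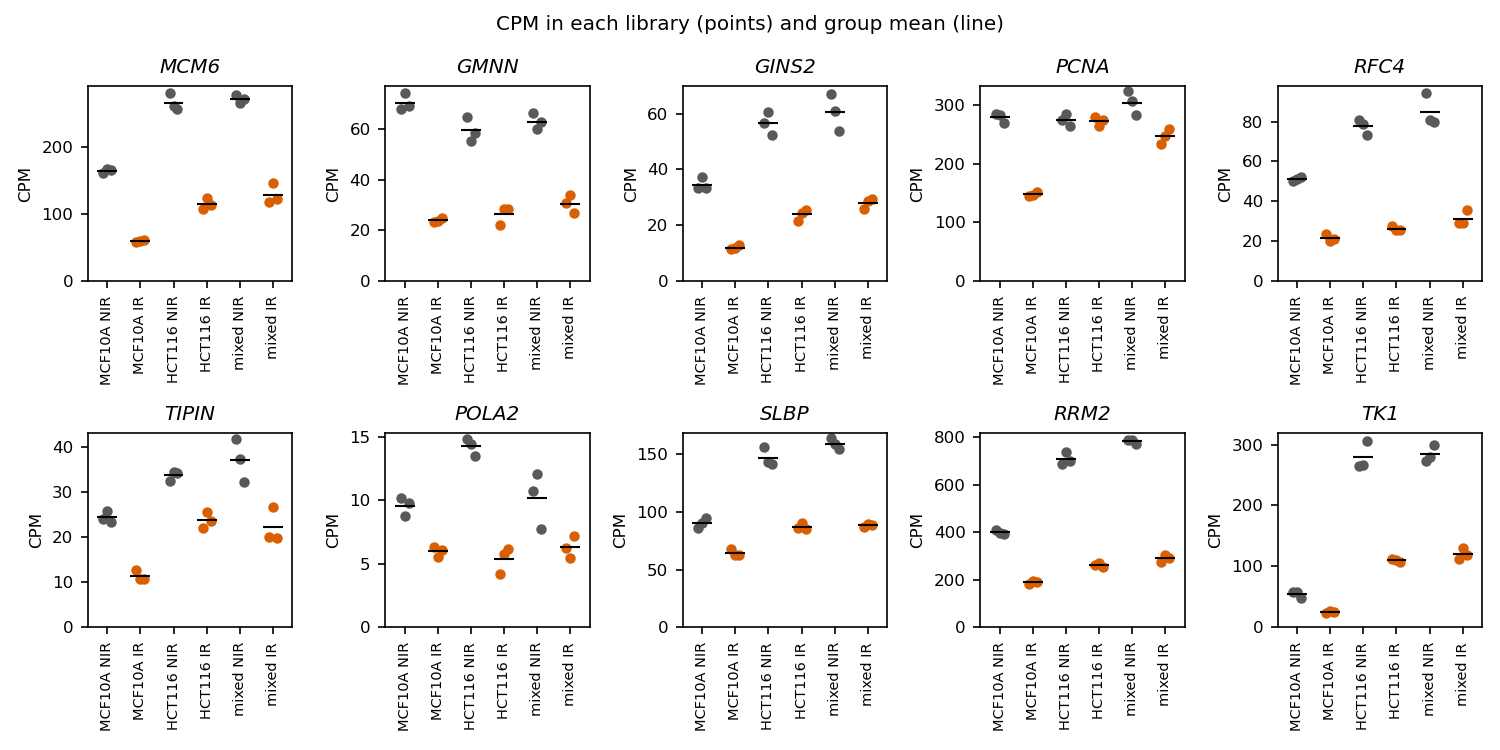
CPM of 10 genes (vertical axes, each from 0) in the 6 groups; points are the 3 libraries of a group, grey for NIR and orange for IR, and lines are group means. PCNA at 264 to 284 CPM in NIR and 264 to 280 CPM in IR libraries of HCT116 is the panel in which the groups of a line overlap.

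Of the 4 genes that mature Okazaki fragments, 3 were tested and fell in MCF10A, and 4 fell in HCT116 and in mixed cultures. DNA2, a nuclease and helicase that trims long flaps, fell most in MCF10A, from 40.8, 42.0 and 46.5 to 17.8, 15.7 and 14.4 CPM, a change of -1.46 ± 0.09, beside -1.26 ± 0.10 in HCT116. FEN1, the flap endonuclease, fell least in both lines. It was counted at 77.4, 79.3 and 77.6 CPM in MCF10A NIR and 43.8, 39.8 and 50.4 CPM in IR, and at 125, 115 and 116 CPM in NIR and 52.1, 68.5 and 53.3 CPM in IR libraries of HCT116. Its changes were -0.82 ± 0.07 and -1.02 ± 0.08, and the second IR library of HCT116 lay above the other two. LIG1, the ligase that seals the fragments, fell to 51.2% of its NIR mean in MCF10A and 39.1% in HCT116. RNASEH2A (chr19:12806556-12815201, plus strand) was counted at 0.955, 0.932 and 1.41 CPM in HCT116 NIR and 0.213, 0.171 and 0.272 CPM in HCT116 IR. In MCF10A it stood at 0.0294, 0.254 and 0.273 CPM in NIR and 0.110, 0.219 and 0.0294 CPM in IR, with as few as 1 count in a library, and those groups overlapped. Its change of -2.32 ± 0.53 in HCT116 (adjusted p = 0.00082) was the largest of all members there, but the lowest counts behind it were 30 in NIR and 7 in IR libraries, and the limit on its counting given above applies.

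The 5 genes of fork protection and chromatin assembly fell in every culture, with medians of -1.34, -1.26 and -1.11. CLSPN, which encodes claspin, the adaptor that lets ATR activate CHEK1 at stalled forks, fell most in MCF10A, from 71.2, 70.5 and 61.4 to 26.2, 25.3 and 27.9 CPM. Its change was -1.38 ± 0.07 there and -1.26 ± 0.08 in HCT116. TIMELESS and TIPIN form a pair that travels with the fork and steadies it. TIMELESS fell most in HCT116, from 129, 122 and 134 to 46.1, 46.0 and 49.1 CPM, a change of -1.44 ± 0.07, beside -1.34 ± 0.06 in MCF10A. TIPIN (chr15:66336206-66386746, minus strand) fell least in both lines. It was counted at 24.1, 25.7 and 23.4 CPM in MCF10A NIR and 12.6, 10.7 and 10.8 CPM in IR, and at 32.5, 34.5 and 34.1 CPM in NIR and 22.1, 25.6 and 23.5 CPM in IR libraries of HCT116. The groups were apart in each line, but the margin was narrower in HCT116, where the change was -0.50 ± 0.09 against -1.13 ± 0.10 in MCF10A. The ratio of TIPIN to TIMELESS was 0.263 ± 0.0169 in HCT116 NIR and 0.504 ± 0.0446 in HCT116 IR, and 0.266 ± 0.0214 and 0.309 ± 0.0348 in MCF10A, where the NIR and IR libraries met. In mixed cultures the ratio was 0.260 ± 0.0363 in NIR and 0.373 ± 0.0456 in IR libraries, a smaller mean rise than in HCT116 alone. The ratio was not tested, and neither gene's change was called different between mixed cultures and HCT116. CHAF1A and CHAF1B, subunits of the chromatin assembly factor CAF-1 that places histones behind the fork, fell to 46.3% and 39.3% in MCF10A and to 37.6% and 47.2% in HCT116.

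The nucleotide genes and SLBP fell as well, 6 of 6 in each culture, with medians of -1.06 in MCF10A, -1.09 in HCT116 and -1.13 in mixed cultures. TK1, thymidine kinase of the salvage pathway, fell most in MCF10A, from 58.2, 57.8 and 49.0 to 24.0, 26.8 and 25.0 CPM. In HCT116 it fell from 265, 267 and 306 to 113, 111 and 107 CPM. Both sets of groups were apart, with changes of -1.15 ± 0.08 and -1.33 ± 0.07. RRM2, the S-phase subunit of ribonucleotide reductase, fell most in HCT116, from 686, 737 and 699.7 to 263, 271 and 256 CPM. In MCF10A it fell from 410.3, 397 and 393 to 183, 197 and 191 CPM. Its changes were -1.42 ± 0.06 and -1.09 ± 0.04, while the large subunit RRM1 changed by -0.94 ± 0.06 and -0.94 ± 0.04. The ratio of RRM2 to RRM1 was 2.74 ± 0.179 in HCT116 NIR and 1.96 ± 0.0013 in HCT116 IR, and 1.63 ± 0.0618 and 1.47 ± 0.0372 in MCF10A. TYMS, which makes dTMP, fell to 49.6% and 51.9% of its NIR mean in MCF10A and HCT116, and DUT, which removes dUTP, to 46.6% and 42.1%. SLBP, the protein that binds the stem-loop of histone mRNAs, fell least in both lines, from 85.7, 90.1 and 94.3 to 68.1, 62.9 and 62.9 CPM in MCF10A. In HCT116 it fell from 156, 143 and 141 to 86.0, 90.2 and 85.2 CPM. Its changes were -0.50 ± 0.06 and -0.74 ± 0.06, the first being the smallest fall of any member in MCF10A.

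Medians of members with and without E2F letters lay close together. The median change was -1.18 for the 18 members with the letters and -1.13 for 26 without them in MCF10A, and -1.19 and -1.18 (27 without) in HCT116. PCNA, with E2F letters before its start, was the member with no call in HCT116. GMNN, without them in the window, had the largest fall of any member in MCF10A. CDC7, also without them, had the largest fall of its role in HCT116. GINS2 in MCF10A and MCM7 in HCT116, both with the letters, likewise had the largest fall of their role. GMNN, CDC7 and PCNA each have a further start listed that was not searched. These medians are descriptions over members and were not tested.

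The non-irradiated lines differed in the level of these genes before any treatment. In HCT116 NIR 37 members were higher and 9 lower than in MCF10A NIR, where 74.8% of 16568 genes tested were called, 38.7% higher and 36.1% lower, and the median was 0.38 against 0.05 over all genes. Many genes of all kinds differ between the lines, so a call alone says little here. With upper-quartile factors or library totals alone the median of all genes moved to 0.25, 62.4% or 62.2% of called genes were higher instead of 51.8%, and 4 members were called lower. All 6 subunits of the MCM ring were higher in HCT116, by 0.42 (MCM3) to 0.86 (MCM7), and so were LIG1 (0.94 ± 0.06), RPA1 (0.82 ± 0.05), CDC6 (0.87 ± 0.06) and both primase subunits, PRIM1 (0.90 ± 0.08) and PRIM2 (1.01 ± 0.08). TK1 at 265, 267 and 306 CPM in HCT116 and 58.2, 57.8 and 49.0 CPM in MCF10A was 2.14 ± 0.08 higher on the log2 scale (adjusted p = 2.9e-14), the largest difference but for the sparsely counted RNASEH2A (2.36 ± 0.59). CDT1 at 95.4, 96.5 and 107 and 33.8, 34.0 and 29.5 CPM was higher by 1.42 ± 0.08, and RFC5 by 1.15 ± 0.07.

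The members lower in HCT116 were POLD3, GINS3, DUT, GMNN, GINS1, DNA2, PCNA, CDC45 and RRM1. POLD3, a subunit of polymerase delta, was counted at 34.4, 32.9 and 31.0 CPM in HCT116 NIR and 55.6, 54.2 and 55.3 CPM in MCF10A NIR, a difference of -0.95 ± 0.07. GINS3 differed by -0.74 ± 0.12, DUT by -0.71 ± 0.07 and GMNN by -0.44 ± 0.07, and these 4 were also called lower under every scaling tried. The calls of GINS1, DNA2, PCNA, CDC45 and RRM1 were lost with upper-quartile factors and with library totals alone, and RRM1, whose mean CPM was 105% of that in MCF10A, then changed sign. The call of CDC45 was also lost without MCF10A NIR replicate 3 (-0.18), and so was that of CHAF1B (0.17), that of POLE2 was lost without MCF10A NIR replicate 2 (0.22), and that of RRM1 without MCF10A NIR replicate 2 or HCT116 NIR replicate 2 or 3. DBF4, RFC3, POLD2, RPA3, ORC6 and CLSPN were not called. CDT1 was thus higher and its inhibitor GMNN lower in HCT116, and the ratio of their CPM was 1.47 to 1.83 in HCT116 NIR and 0.428 to 0.497 in MCF10A NIR. After irradiation the ratio was 1.38 to 1.97 in HCT116 and 0.438 to 0.553 in MCF10A, ranges that overlap with those before.

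**Figure D3:**
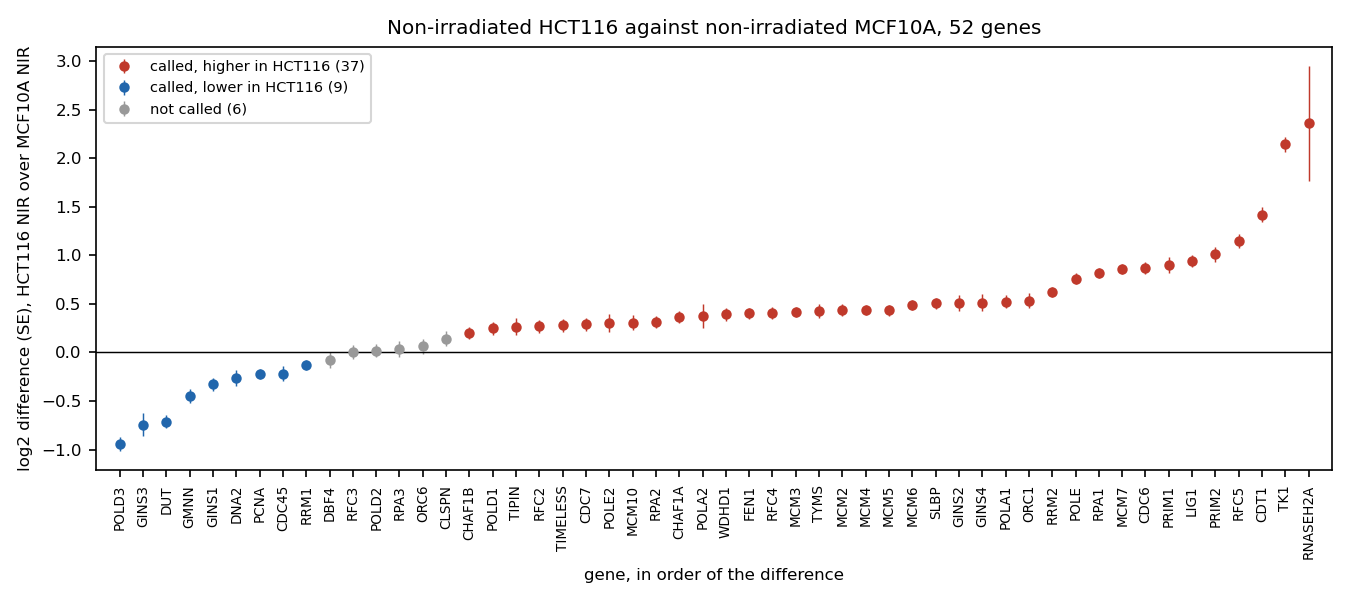
The vertical axis is the log2 difference of non-irradiated HCT116 over non-irradiated MCF10A for each of the 52 genes, in order of size, with the standard error as a bar. Of these, 37 genes in red were called higher in HCT116, 9 in blue lower, and 6 in grey were not called.

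Whether the 2 lines responded differently was tested as the difference of their changes, HCT116 minus MCF10A. PCNA stood out, with a change that was 0.86 ± 0.07 higher in HCT116 than in MCF10A on the log2 scale (adjusted p = 2.6e-10). Of 52 members, 6 changes were higher (less of a fall) in HCT116 and 10 were lower (more of a fall), against 15.4% and 21.9% of 18179 genes tested, and 36 were not called. In all 37.3% of genes were called, so the members' share is near or under the background, and the median of members was -0.03 against -0.10 over all genes. Across 51 members the 2 lines' changes had a Pearson correlation of 0.573 and a Spearman correlation of 0.520, given as a description over genes of 12 libraries.

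The 6 members that fell less in HCT116 were PCNA, TIPIN (0.55 ± 0.13), DBF4 (0.38 ± 0.12), GINS1 (0.34 ± 0.11), GMNN (0.33 ± 0.12) and MCM6 (0.20 ± 0.08). PCNA stood at 99.5% of its NIR mean in HCT116 and 53.1% in MCF10A, and TIPIN at 70.3% and 46.6%. DBF4 stood at 48.9% and 36.4%, GINS1 at 56.6% and 43.3%. The 10 members that fell further in HCT116 were POLA2 (-0.78 ± 0.20), LIG1 (-0.44 ± 0.09), POLD1 (-0.42 ± 0.11), RRM2 (-0.40 ± 0.07), RFC4 (-0.37 ± 0.10), POLE (-0.35 ± 0.08), CHAF1A (-0.34 ± 0.10), SLBP (-0.32 ± 0.08), MCM7 (-0.27 ± 0.07) and TK1 (-0.27 ± 0.10). POLA2 stood at 37.7% of its NIR mean in HCT116 and 62.5% in MCF10A, LIG1 at 39.1% and 51.2%, POLD1 at 37.7% and 48.8%. Among the catalytic polymerase subunits, those of delta and epsilon thus fell further in HCT116, and that of alpha was not called. In 8 members (PCNA, TIPIN, DBF4, GINS1, POLA2, LIG1, RRM2 and POLE) the call held under every alternative, and in the other 8 it was lost under 2 to 13 of the alternatives, most often for TK1.

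The counts moved with single libraries. Without MCF10A IR replicate 1, 2 or 3, the members lower in HCT116 numbered 5, 6 and 5, and over all libraries left out in turn they ranged from 5 to 11. Leaving out 1 or more of these 3 libraries ended the calls of CHAF1A, MCM7, POLD1, RFC4, SLBP and TK1, and leaving out HCT116 IR replicate 2 ended those of CHAF1A, MCM7, RFC4 and TK1. TK1 also lost its call without HCT116 IR replicate 3 and without replicate 3 of either NIR group. Over the alternatives that ended a call the differences were -0.25 to -0.22 for CHAF1A, -0.19 to -0.15 for MCM7, -0.29 to -0.28 for POLD1, -0.28 to -0.20 for RFC4, -0.22 to -0.18 for SLBP and -0.27 to -0.11 for TK1. GMNN (0.27 to 0.32) and MCM6 (0.18 to 0.22) lost the call without MCF10A NIR replicate 2, HCT116 NIR replicate 2 or HCT116 IR replicate 3, and MCM6 also without replicate 3 of either NIR group. The members higher ranged from 4 to 11, with 11 without MCF10A IR replicate 3. The median of all genes moved too, from -0.10 in the main fit to 0.0055, 0.0081 and 0.0069 without MCF10A IR replicate 1, 2 or 3. Without HCT116 IR replicate 2 it was -0.0116. It stayed at -0.107, -0.100 and -0.111 without MCF10A NIR replicate 2, HCT116 NIR replicate 2 or HCT116 IR replicate 3, where GMNN and MCM6 lost the call. In the fits without an MCF10A IR library or HCT116 IR replicate 2, all genes thus shifted, not the members alone. The part of this shift in the members' calls was not tested. A like shift came with scaling. Without mitochondrial and the 10 most abundant genes, the median of all genes was -0.01. There 52.5% of called genes were higher instead of 41.3%, and 11 members were higher. With no filter 51.9% of called genes, and with all 18 libraries in one fit 51.8%, were higher. The difference of PCNA lay between 0.83 and 0.98 under all of these.

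**Figure D4:**
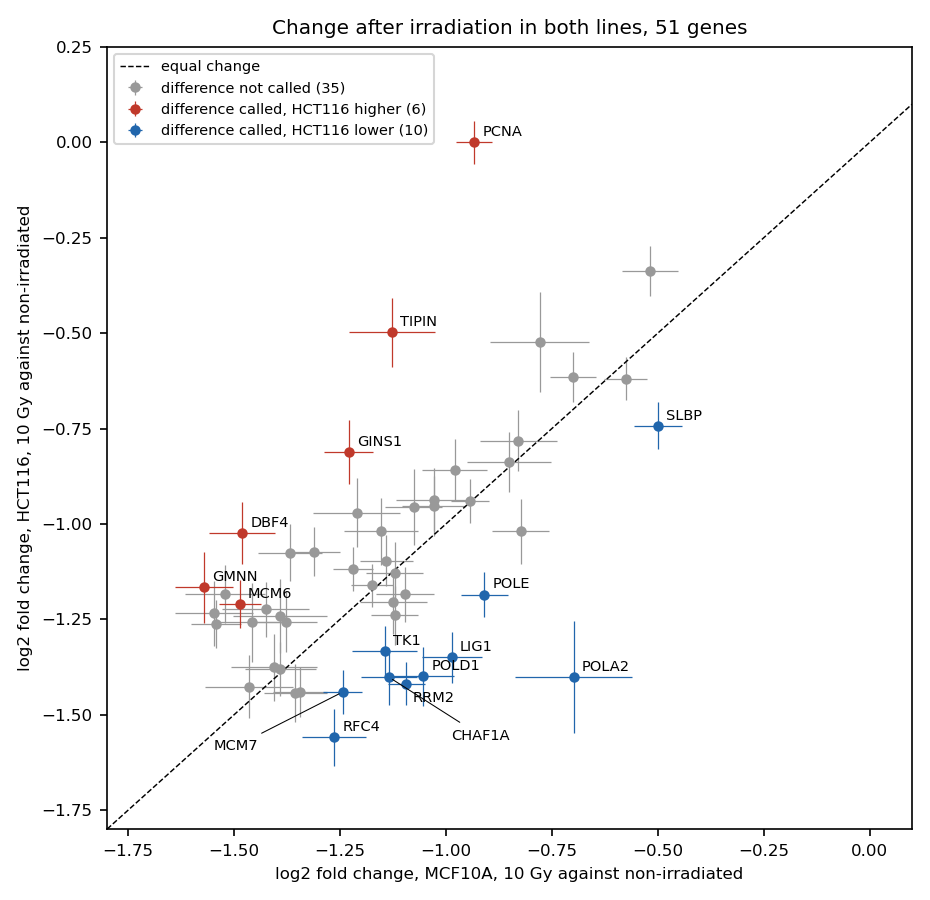
Each point is 1 of the 51 genes tested in both lines, with the log2 change after 10 Gy in MCF10A on the horizontal and in HCT116 on the vertical axis, bars for standard errors and a dashed line where changes are equal. PCNA (-0.93 and -0.00), TIPIN (-1.13 and -0.50) and POLA2 (-0.70 and -1.40) lie farthest from the line among the 16 genes whose difference was called.

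Mixed cultures, whose RNA was nearly all from HCT116, were set against HCT116 alone in the same way. None of the 52 members differed in its response by edgeR, where 0.83% of 18072 genes did (0.681% higher and 0.149% lower). An unadjusted edgeR p under 0.05 was found for 7 of the 52 members and for 2272 of the 18072 genes. DESeq2 called 1 member, PCNA, and 298 of the 14021 genes it tested. The change of PCNA in mixed cultures minus that in HCT116 was -0.32 ± 0.08 (edgeR adjusted p = 0.053), and the adjusted p ranged from 0.0024 to 0.11 over the alternatives, with a call in 7 of them. It was called without HCT116 NIR replicate 2 (adjusted p = 0.049) and without mixed NIR replicate 3 (adjusted p = 0.012). POLA2 differed by 0.70 ± 0.23 (adjusted p = 0.16), the largest value on the other side, and was not called under any alternative. Over 52 members the changes in HCT116 and mixed cultures had a Pearson correlation of 0.908 and a Spearman correlation of 0.842, a description over genes.

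A further list of 54 genes of the same pathways gave the members a wider setting. In MCF10A 43 of these fell and 3 rose, and in HCT116 31 fell and 11 rose, beside the 29.2% and 27.2% of all genes called lower and 26.2% and 25.3% called higher. In mixed cultures 33 fell and 7 rose, beside 25.4% and 24.0% of all genes. Of the 54, 29 fell in both lines and 3 rose in both, and the share of all genes with such joint calls is not given here. Those 3 were RRM2B, a small subunit of ribonucleotide reductase (0.61 ± 0.04 in MCF10A and 0.89 ± 0.06 in HCT116), POLD4, the smallest subunit of polymerase delta (0.77 ± 0.23 and 0.56 ± 0.19), and TK2, the mitochondrial thymidine kinase (0.43 ± 0.09 and 0.43 ± 0.11). The levels of POLD4 were low, with means of 2.14 CPM in NIR and 3.73 CPM in IR libraries of MCF10A, and 4.02 and 5.89 CPM in HCT116. RRM2B rose while its S-phase counterpart RRM2 fell, and the ratio of RRM2B to RRM2 went from 0.429 ± 0.0107 in MCF10A NIR to 1.40 ± 0.0692 in IR libraries, and from 0.270 ± 0.0075 to 1.34 ± 0.0854 in HCT116 (CPM, SD, n = 3).

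The 6 genes ORC5, UMPS, CTPS1, PPAT, ADSL and NME1 fell in MCF10A and rose in HCT116. The share of all genes with such opposite calls is not given here. In mixed cultures, with RNA almost all from HCT116, only UMPS (0.20) and ADSL (0.60) were called higher. There ORC5 (0.24), CTPS1 (0.08), PPAT (0.11) and NME1 (-0.12) were not called. The NIR and IR libraries of HCT116 overlapped for PPAT. Grouped after their values were seen, 7 of 9 genes of purine synthesis fell in MCF10A, while in HCT116 4 fell and 2 rose, and the difference between the lines was called higher in HCT116 for 6 of the 9, beside 15.4% of all genes tested. All 3 genes of pyrimidine synthesis (CAD, UMPS and CTPS1) fell in MCF10A, 2 of the 3 rose in HCT116, and all 3 differences were called higher in HCT116. The share of all called genes that were higher in this comparison was 41.3%, and 52.5% without mitochondrial and the 10 most abundant genes, and nothing is read from these groups beyond their counts. PPAT, the first enzyme of purine synthesis, changed by -0.55 ± 0.06 in MCF10A and 0.20 ± 0.06 in HCT116, and UMPS, which makes UMP, by -0.39 ± 0.06 and 0.32 ± 0.07. The 5 deoxynucleotide genes among the members, RRM1, RRM2, TYMS, TK1 and DUT, fell by at least 0.94 in both lines.

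**Figure D5:**
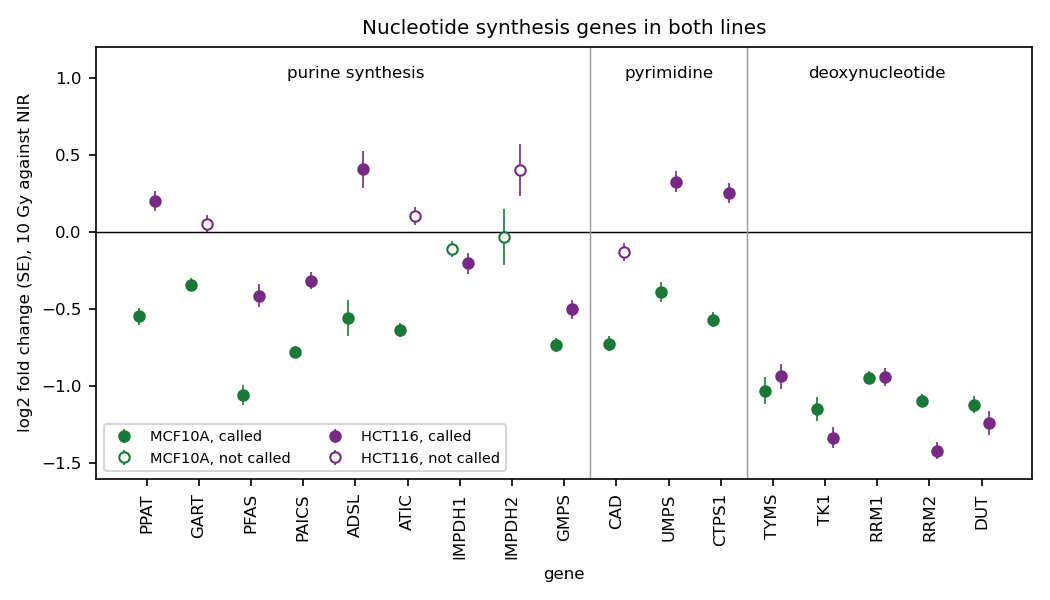
Log2 fold change after 10 Gy with standard errors, in MCF10A (green) and HCT116 (purple), for genes of purine, pyrimidine and deoxynucleotide synthesis; filled points were called and open points were not. The 5 deoxynucleotide genes lie between -1.42 and -0.94 in both lines, and the HCT116 points of the purine and pyrimidine genes lie between -0.50 and 0.41.

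The genes whose log2 CPM followed the most changed members most closely over the 18 libraries were named as a description, out of 14130 genes. GMNN was followed by GINS1 (Pearson r = 0.987), TPRKB (0.983), CENPA (0.982), MAD2L1 (0.981) and PSRC1 (0.981). RNASEH2A was followed less closely, by HDGFL2 (0.938), R3HCC1 (0.936), EAF2 (0.934), SF3B2 (0.934) and TESK2 (0.929). RFC4, added after its values were seen, was followed by KIF4A (0.992), MKI67 (0.991), RACGAP1 (0.991), STMN1 (0.991) and FBXO5 (0.990). Groups of these libraries share treatment, line and medium, and so do all points behind each r.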

How the data were processed

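Each library had a table of raw counts per gene symbol, deposited by the authors without normalization. The submitters' processing notes name fastp, STAR, featureCounts and GRCh38, with no versions or settings; the annotation is not given in the sources used here, and libraries were made with a stranded mRNA kit per the labels' protocols. Library totals were 25737818 to 40839835; 68.3% of values from 1 to 10 were even, so counts were also halved as an alternative. Groups came from the sample titles. CPM are counts times 1000000 over the library total. Each comparison was fitted on all genes of its groups with edgeR 4.0.16 in R 4.3.3 (TMM, filterByExpr, quasi-likelihood test, 2-sided, Benjamini-Hochberg); a standard error is the log2 fold change over the root of F. Alternatives were DESeq2 1.42.0, other scalings, filters and fits, a replicate block, and each library left out. The test was checked on simulated data. Values in every library are given for the members with the smallest and largest change of each role in each line and for members not called; the 5 genes most like the most changed members were named by Pearson r. The MCF10A share of a mixed library compares medians of line-specific genes (at least 20 CPM in that line, under 1 CPM in the other). Gene positions and exon lengths came from GENCODE v29. The members and lists were chosen with earlier results of these data known. Some items are not reported here.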

Additional observations from a re-analysis of the deposited data

Results flagged for a closer look

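The change after 10 Gy differed between HCT116 and MCF10A for 16 of the 52 genes by the test of the difference itself (edgeR, adjusted p under 0.05), where 37.3% of all genes tested did. On the log2 scale, the change in HCT116 was higher by 0.86 for PCNA, 0.55 for TIPIN, 0.38 for DBF4, 0.34 for GINS1, 0.33 for GMNN and 0.20 for MCM6. It was lower for POLA2 (-0.78), LIG1 (-0.44), POLD1 (-0.42), RRM2 (-0.40), RFC4 (-0.37), POLE (-0.35), CHAF1A (-0.34), SLBP (-0.32), MCM7 (-0.27) and TK1 (-0.27). The median over all genes in this fit was -0.10. The calls of GMNN, MCM6, POLD1, RFC4, CHAF1A, SLBP, MCM7 and TK1 were lost under some of the alternatives. The lines also differ in medium and in the mitochondrial share after irradiation (6.06 to 6.35% of counts in MCF10A, 11.5 to 12.3% in HCT116), and the part of these in the differences was not tested.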

How the results depend on the processing

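In the 3 irradiation comparisons, members called lower numbered 51, 51 and 52 under every alternative, the replicate block included, and none was called higher. PCNA in HCT116 changed sign, at 0.0022 with DESeq2, 0.0113 with upper-quartile factors, 0.0133 with counts halved, 0.0143 with all 18 libraries in one fit, and -0.0215 to 0.0223 with a library left out, never with a call. Between non-irradiated lines, 4 members were called lower with upper-quartile factors and 4 with library totals alone, and RRM1 was then at 0.0774 and 0.0741; with a library left out 36 to 38 were higher and 8 to 9 lower. Of differences between the lines' responses, 11 were higher without mitochondrial and the 10 most abundant genes, 11 with no filter and 10 with all 18 libraries in one fit, and 4 to 11 with a library left out; 5 were lower with no filter and 5 to 11 with a library left out. Between mixed cultures and HCT116, 1 member was lower (PCNA) with DESeq2, without mitochondrial and top genes, with no filter, with counts halved and with all 18 libraries, and 0 to 1 with a library left out. The causes were not tested. With line-specific genes at 50 CPM the MCF10A share of mixed RNA was 0.345% (NIR) and 1.07% (IR).

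Correlations of same-numbered residuals ran from -0.146 to 0.196. Differently numbered libraries were not compared, so whether replicate numbers pair the libraries was not settled. With a replicate block GMNN, MCM6 and TK1 lost the call of their difference between lines, RRM1 lost that between non-irradiated lines, and no other member's call changed. Depth limits RNASEH2A (as few as 1 count in a library) and, less so, POLA2.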
